A study of Mus musculus with 10 samples.

Results

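The promoters described here were almost fully methylated in all 3 pools of mouse MII oocytes, eggs arrested at metaphase of the second meiotic division. A promoter window spans 1000 bp to each side of an Ensembl transcript start. A window was taken when each pool held at least 20 CpG calls in it, at least 80% of those calls were methylated in each pool, and fewer than 80 CpG positions were covered. The rule found 2241 windows. They made up 11.7% of the 19099 windows that met the call and position criteria and 5.53% of the 40537 nuclear windows listed for all 3 pools. Overlapping windows share calls, and merging them left 1758 separate loci, of which 1459 held 1 window. The measured levels chose these windows, so their levels are given as a description with no test.

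The pools came from 2-month Tet2 knockout (Tet2KO) females with 3 libraries, 11-month wild-type (WT) females with 3 libraries and 2-month WT females with 4 libraries, all of a mixed C57BL6/129 background. The labels state no promoter, Cre driver or deletion details for the Tet2 allele, and promoter calls give no check of the knockout. The labels conflict on the input, naming both 10 oocytes per sample and a single oocyte. Each deposited table holds 1 pooled value per window, so no difference has a replicate check, and all intervals below cover counting error only.

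Bisulfite sequencing reads a protected cytosine as methylated and does not separate methylcytosine from hydroxymethylcytosine, the first product of the Tet enzymes. In the growing oocyte, methylation is laid down mainly across transcribed gene bodies, while most CpG-rich promoters stay free of it. Maternally imprinted genes carry a mark that is set in the oocyte and kept on the maternal copy after fertilisation.

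The sequences below show promoters on which the results turn, from 250 bases before to 50 bases after an annotated RefSeq start (build GRCm38.p6, gene strand, 5′ to 3′), with CpG dinucleotides in capitals. Dnmt1, the maintenance DNA methyltransferase, has an upstream start used in oocytes and a downstream start used in somatic cells. The downstream start on the minus strand, chr9:20952930-20953229, lay in a highly methylated window and holds 12 CpGs.
Dnmt1 downstream start: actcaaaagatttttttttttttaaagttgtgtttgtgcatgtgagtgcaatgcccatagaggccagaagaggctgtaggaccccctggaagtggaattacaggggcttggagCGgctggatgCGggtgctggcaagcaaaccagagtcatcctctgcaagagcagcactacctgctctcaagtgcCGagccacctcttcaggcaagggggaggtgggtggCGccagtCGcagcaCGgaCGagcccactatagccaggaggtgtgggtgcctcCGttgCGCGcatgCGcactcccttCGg
The upstream start, chr9:20959839-20960138, holds 2 CpGs and lay in a window with few methylated calls.
Dnmt1 upstream start: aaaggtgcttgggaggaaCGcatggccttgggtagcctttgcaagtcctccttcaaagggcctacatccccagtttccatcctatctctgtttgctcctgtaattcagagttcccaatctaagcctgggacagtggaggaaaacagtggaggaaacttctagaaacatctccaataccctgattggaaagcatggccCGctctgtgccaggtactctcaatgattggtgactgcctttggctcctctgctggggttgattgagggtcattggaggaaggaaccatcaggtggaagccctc
Dnmt3b encodes a de novo DNA methyltransferase, and its start on the plus strand, chr2:153649199-153649498, holds 30 CpGs.
Dnmt3b: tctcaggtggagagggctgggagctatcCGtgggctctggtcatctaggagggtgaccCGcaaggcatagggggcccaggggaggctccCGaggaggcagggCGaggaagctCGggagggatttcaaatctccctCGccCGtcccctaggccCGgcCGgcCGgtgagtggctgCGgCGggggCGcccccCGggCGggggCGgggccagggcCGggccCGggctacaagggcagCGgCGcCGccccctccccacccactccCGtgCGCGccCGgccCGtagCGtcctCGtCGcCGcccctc
Pik3cd encodes the delta catalytic subunit of PI3 kinase, a leukocyte enzyme, and an internal start on the minus strand, chr4:149676040-149676339, holds 26 CpGs.
Pik3cd internal start: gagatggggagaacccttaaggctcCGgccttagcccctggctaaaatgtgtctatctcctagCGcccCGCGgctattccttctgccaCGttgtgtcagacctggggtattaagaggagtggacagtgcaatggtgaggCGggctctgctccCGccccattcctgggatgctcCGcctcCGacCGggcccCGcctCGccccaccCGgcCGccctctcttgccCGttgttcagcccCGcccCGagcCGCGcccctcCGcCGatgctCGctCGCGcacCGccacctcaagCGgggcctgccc

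A further set shows maternally imprinted promoters. The start of Kcnq1ot1, a long noncoding RNA antisense to Kcnq1, lies on the minus strand at chr7:143296498-143296797 and holds 9 CpGs.
Kcnq1ot1: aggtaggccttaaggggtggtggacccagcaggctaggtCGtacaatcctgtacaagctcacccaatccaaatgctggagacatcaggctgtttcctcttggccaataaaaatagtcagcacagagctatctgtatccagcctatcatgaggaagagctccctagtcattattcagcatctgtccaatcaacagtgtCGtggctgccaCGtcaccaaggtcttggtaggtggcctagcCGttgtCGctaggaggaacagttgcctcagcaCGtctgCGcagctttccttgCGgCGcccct
The start of Peg3, a zinc finger gene, lies on the minus strand at chr7:6730370-6730669 and holds 13 CpGs.
Peg3: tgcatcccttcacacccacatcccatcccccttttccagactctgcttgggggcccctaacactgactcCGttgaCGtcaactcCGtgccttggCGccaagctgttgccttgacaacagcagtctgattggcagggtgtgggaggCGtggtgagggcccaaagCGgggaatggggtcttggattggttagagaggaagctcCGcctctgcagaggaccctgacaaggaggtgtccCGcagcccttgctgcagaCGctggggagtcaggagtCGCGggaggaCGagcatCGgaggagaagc
The start of Snrpn, which encodes a spliceosomal protein, lies on the minus strand at chr7:60005150-60005449 and holds 7 CpGs.
Snrpn: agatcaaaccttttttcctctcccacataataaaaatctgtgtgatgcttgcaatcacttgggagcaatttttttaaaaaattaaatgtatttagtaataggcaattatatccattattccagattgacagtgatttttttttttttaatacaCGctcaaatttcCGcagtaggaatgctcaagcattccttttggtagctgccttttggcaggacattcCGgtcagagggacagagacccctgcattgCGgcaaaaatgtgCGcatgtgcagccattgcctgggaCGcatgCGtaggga
The start of Airn, a noncoding RNA antisense to Igf2r, lies on the plus strand at chr17:12741061-12741360 and holds 3 CpGs.
Airn: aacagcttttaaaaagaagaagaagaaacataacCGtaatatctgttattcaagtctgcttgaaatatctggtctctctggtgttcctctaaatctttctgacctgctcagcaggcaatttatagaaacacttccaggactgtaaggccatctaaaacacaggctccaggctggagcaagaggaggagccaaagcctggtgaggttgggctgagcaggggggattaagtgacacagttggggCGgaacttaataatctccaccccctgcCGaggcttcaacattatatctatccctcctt
These highly methylated promoters ranged from 3 to 30 CpGs in the 300 bases shown, so high levels were not limited to promoters poor in CpG.

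Most windows of the set lay close to full methylation. The median level was 96.8% in Tet2KO, 97.1% in 11-month WT and 97.1% in 2-month WT, against 3.13%, 3.55% and 3.85% over all windows that met the call and position criteria, in the same order of pools. The lowest 5% of the set lay under 86.5% in Tet2KO, 88.0% in 11-month WT and 86.7% in 2-month WT. In 969 windows every pool was at 95% or more, and in 63 every pool was at 100%. Within a window, the highest and lowest pool lay a median of 4.67 percentage points (points below) apart.

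The depth behind a level was modest. The median window of the set held 34 calls in Tet2KO, 77 in 11-month WT and 47 in 2-month WT. At those depths, 0 unmethylated calls still allow an unmethylated share of up to 8.82%, 3.90% and 6.38%. A level of 100% was recorded for 741 windows in Tet2KO, 363 in 11-month WT and 665 in 2-month WT, and the pool with the most calls had the fewest such windows.

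The level that defines the set falls in a thinly filled range. The lowest pool lay between 80 and 85% in 156 windows of the set, and between 75 and 80% in 108 windows left out. Just inside, the 2-month WT pool was at 80.2% at Mlx, a transcription factor gene, and the 11-month WT pool was at 80.4% at Krt12, a corneal keratin gene. Just outside, Isoc2b had 84.5% in Tet2KO, 85.5% in 11-month WT and 79.7% in 2-month WT, and Slc18b1, a polyamine transporter gene, had 97.4%, 79.6% and 98.0% in that order. Windows at 80% or more numbered 2581 in Tet2KO, 2584 in 11-month WT and 2512 in 2-month WT. The set held 86.8%, 86.7% and 89.2% of them. Of the 2858 windows at 80% or more in at least 1 pool, 78.4% were so in all 3.

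High methylation was found mostly in windows with few CpGs. The median window of the set had 29 covered CpG positions, against 44 over all windows that met the criteria and 54 over the 7878 windows under 5% in all 3 pools, called low windows here. The set took 21.8% of windows with under 20 positions, 19.6% of those with 20 to 39, 8.43% of those with 40 to 59 and 2.24% of those with 60 to 79. The limit on positions left out a further 66 windows at 80% or more in all pools, which were 0.447% of the 14780 windows with 80 or more positions. Among these 66 were starts of the maternally imprinted genes Plagl1, Gnas and Mest. At the Mest start, with 95 positions, levels were 93.8% in Tet2KO, 94.9% in 11-month WT and 96.1% in 2-month WT. The window with the most positions, 178, lay at Maz, a zinc finger transcription factor gene, with 98.3% in Tet2KO, 99.8% in 11-month WT and 99.1% in 2-month WT.

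The promoter sequences showed the same order. The 630 RefSeq promoters matched to the set held a median of 6 CpGs in 300 bases, against 12 in the 8194 promoters matched to all windows that met the criteria, 14 in the 3669 matched to low windows and 7 in all 32851 promoters of the table. The ratio of observed to expected CpGs had a median of 0.301 in the set and 0.595 in low windows. The letters GGGCGG, on either strand, occurred in 31.9% of promoters of the set, 51% of low promoters and 35.7% of all promoters. TATAAA occurred in 11.0% of the set, 8.07% of low promoters and 13.6% of all promoters. CCAAT occurred in 35.9%, 39.9% and 37.4% in that order, and CACGTG in 6.35%, 9.92% and 7.15%. TGACGTCA, which the Peg3 promoter holds, occurred in 2.70% of the set, 2.78% of low promoters and 1.79% of all promoters. The search used these 5 motifs on both strands. TGACGTCA, CACGTG and GGGCGG each hold a CpG.

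The highly methylated windows were mostly internal to genes. Of the 2241 windows, 70.8% had their centre inside a protein-coding or lncRNA gene more than 1000 bp from both of its ends, against 34.2% of all windows that met the criteria and 25.2% of low windows. The gap remained among windows of like CpG number. It was 74.2% in the set and 38.8% in low windows under 20 positions, 73.5% and 34.2% at 20 to 39, 64.5% and 24.9% at 40 to 59, and 53.2% and 18.4% at 60 to 79. Chromosome 18 is absent from the table of gene starts, so starts were compared on the other chromosomes. There, 27% of the set lay within 1000 bp of a gene's annotated start, against 55.1% of all windows that met the criteria and 63.7% of low windows. Another 11.3% of the set lay neither at a start nor inside a gene. Levels were close at both positions: the median was 96.7% in Tet2KO, 97.0% in 11-month WT and 97.1% in 2-month WT at gene starts, and 96.8%, 97.1% and 97.1% elsewhere.

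**Figure D1:**
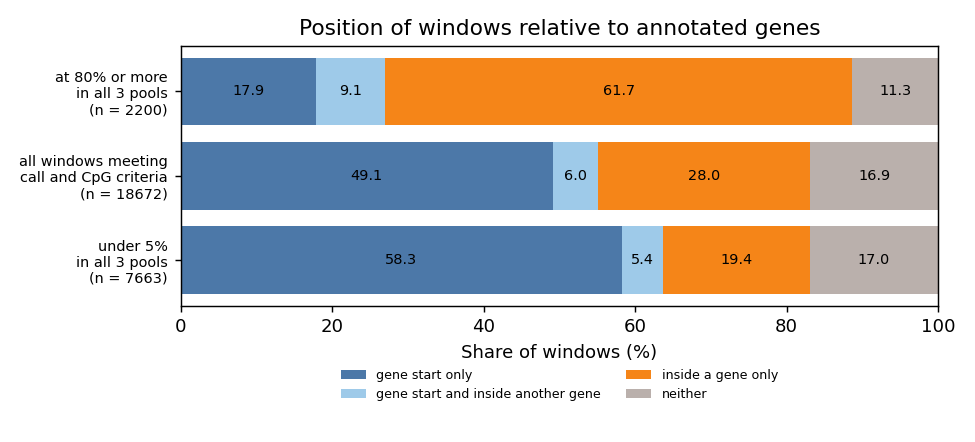
Stacked bars give the share of windows (%, chromosome 18 left out) by position relative to annotated genes, for windows at 80% or more in all 3 pools, all windows that met the call and CpG criteria, and windows under 5% in all 3 pools. Windows inside a gene only make up 61.7% of the highly methylated set and 19.4% of the low windows.

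The genes that contain highly methylated windows were usually unmethylated at their own start, and so were genes that contain low windows. Windows of the set lay inside 1178 genes, and the annotated start of 680 of these was measured. The median level at those starts was 1.84% in Tet2KO, 2.34% in 11-month WT and 2.33% in 2-month WT. Of the 680 starts, 595 (87.5%) were under 20% in all pools and 29 (4.26%) were at 80% or more in all pools. For genes that contain low windows, 381 of 408 starts (93.4%) were under 20% and 5 (1.23%) at 80% or more. The set's windows lay a median of 19584.5 bp from the start of the gene around them.

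Single genes showed the contrast at distances from 3495 to 351410 bp. The farthest window, inside Snd1, lay at the start of another gene, Lrrc4. The Agrn window given below lay at the start of the predicted gene Gm46878. In Gnas, the gene of the stimulatory G protein subunit, an internal window at chr2:174296859-174298858 had 98.7% in Tet2KO, 95.3% in 11-month WT and 98.2% in 2-month WT, while the gene's outermost start had 5.26%, 10.2% and 2.47% in that order. In Agrn, which encodes the synapse organiser agrin, an internal window 11632 bp from the start had 93.9% in Tet2KO, 96.6% in 11-month WT and 96.1% in 2-month WT, and the start had 3.82%, 1.51% and 2.13%. Every pool was high inside and low at the start of both genes, which the choice of pairs required. In Dst, a cytoskeletal linker gene, an internal window 270383 bp from the start had 95.6%, 94.8% and 97.8% in Tet2KO, 11-month WT and 2-month WT, and the start had 4.04%, 4.93% and 3.23%. In Myo18a, an unconventional myosin gene, the internal window lay 3495 bp from the start and had 100% in Tet2KO, 100% in 11-month WT and 96.3% in 2-month WT, and the start had 0.565%, 1.57% and 0.478%.

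**Figure D2:**
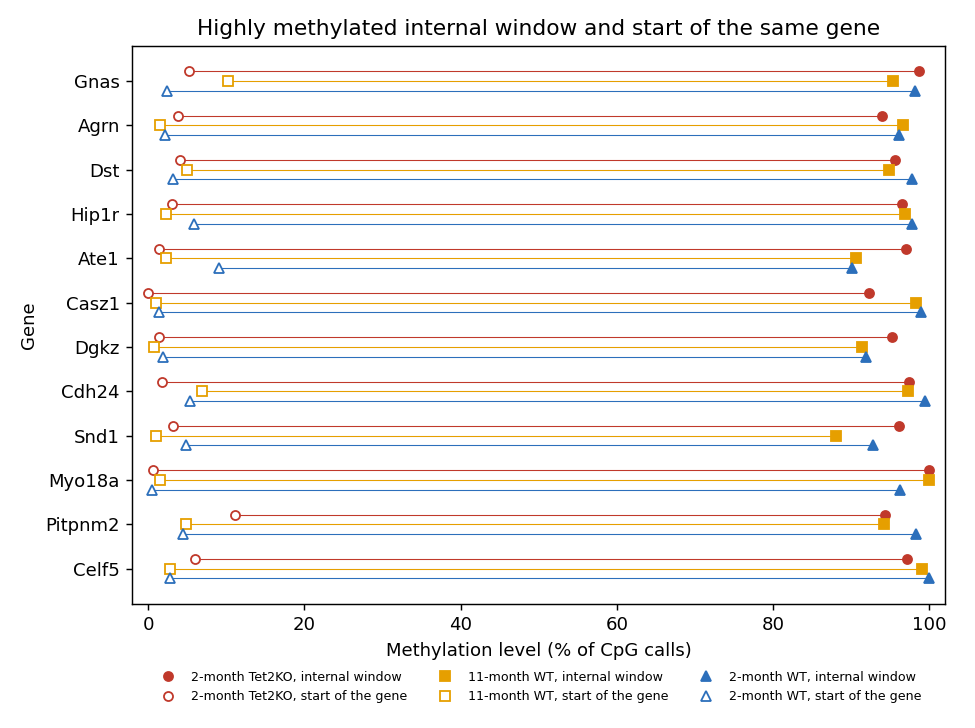
Methylation level (% of CpG calls) of a highly methylated internal window (filled) and of the start of the same gene (open) in 12 genes, with 2-month Tet2KO as red circles, 11-month WT as orange squares and 2-month WT as blue triangles. Internal windows lie at 88.0% or more and starts at 11.1% or less in every pool. The genes were chosen for depth among pairs with a start under 20%. The Snd1 and Agrn windows lie at starts of other genes, Lrrc4 and Gm46878. The Hip1r and Dgkz windows are centred on microRNA hairpins, Mir7032 and Mir6999.

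Several genes held highly methylated windows at many places. There were 35 genes with at least 3 separate loci of the set. Snhg14, the long noncoding RNA that runs through the Snrpn region, held 13 such loci of 18 measured. Myo18a held 6 of 6, the uncharacterised gene 2900026A02Rik 6 of 6, the potassium channel gene Kcnq1 5 of 5, the kinesin gene Kifc3 5 of 5 and the synaptic scaffold gene Shank2 5 of 6. The Kcnq1 loci include the Kcnq1ot1 start and the Snhg14 loci the Snrpn start, and both are counted again below among imprinted genes. At the 5 Kcnq1 loci the lowest level was 96.4% in Tet2KO, 93.0% in 11-month WT and 95% in 2-month WT. At the 5 Shank2 loci it was 83.9%, 85.9% and 86.7% in that order.

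Windows near the set were more methylated than windows near other loci. Non-overlapping windows centred 2 to 5 kb from a locus of the set averaged 40.3% in Tet2KO, 40.3% in 11-month WT and 40.7% in 2-month WT over 346 loci. Around other loci that met the criteria the averages were 15.4%, 15.8% and 16.7% over 1507 loci. The medians at this distance were lower, at 14.5%, 16.6% and 18.4% around the set and 2.48%, 2.79% and 3.78% around other loci. At 100 to 200 kb the averages were 16.2%, 16.4% and 17.0% around the set and 12.6%, 13% and 13.4% around other loci. Neighbours can themselves belong to the set, and on average 32.4% of those at 2 to 5 kb were at 80% or more in all pools, against 8.22% around other loci.

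**Figure D3:**
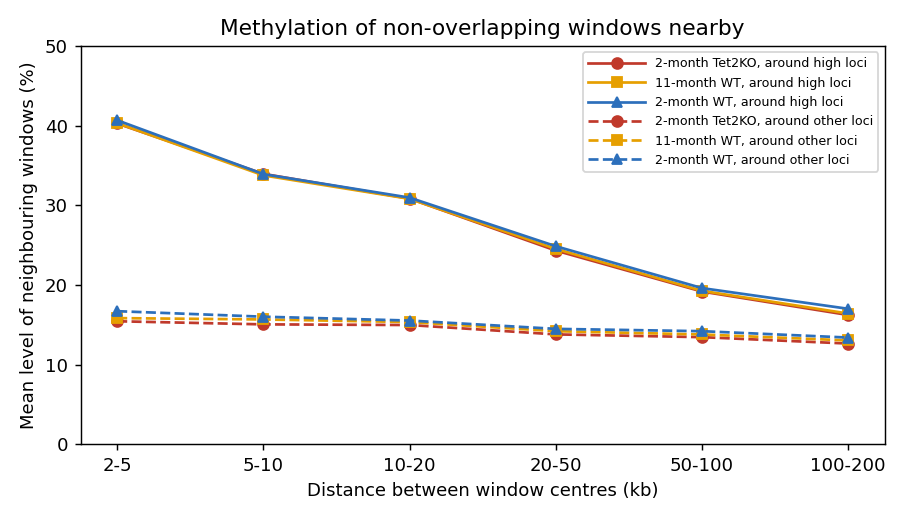
Mean methylation level (%) of non-overlapping windows by distance between window centres (kb, unequal bins), around highly methylated loci (solid lines) and around other loci that met the criteria (dashed lines), for the 3 pools. Around the highly methylated loci the means run from over 40% at 2 to 5 kb to 16.2 to 17.0% at 100 to 200 kb, where the dashed lines lie at 12.6 to 13.4%. Medians are not drawn. At 2 to 5 kb around the highly methylated loci they were 14.5 to 18.4%.

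Windows on microRNA hairpins were frequent in the set. MicroRNA genes are annotated at their processed hairpin, which lies within a longer primary transcript, so a window centred there need not hold that transcript's promoter. Of 473 windows that met the criteria and were centred within 10 bp of a hairpin's 5′ end, 239 (50.5%) belonged to the set, against 11.7% of all windows that met the criteria. They made up 10.7% of the set. Hairpins of a cluster give overlapping windows that share calls, and the share over merged loci was not computed. Among windows with 20 to 39 covered positions, 55.1% of hairpin windows and 18% of the others belonged to it. Among windows inside genes the shares were 59.9% of 329 hairpin windows and 22.4% of 6201 others. Of the remaining hairpin windows, 73 were under 5% in all pools and 161 lay between. Without the hairpin windows, 69.4% of the other 2002 windows of the set were still inside a gene.

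The mature microRNAs below, from RefSeq (GRCm38.p6), come from hairpins whose windows were in the set. They are grouped by seed (bases 2 to 8, in capitals), because methylated clusters on different chromosomes shared some seeds. Mir17, Mir20a, Mir19a, Mir19b-1 and Mir92-1 form a cluster on chromosome 14, Mir93, Mir106b and Mir25 a cluster inside Mcm7 on chromosome 5, and Mir302b, Mir302d and Mir367 a cluster inside Larp7 on chromosome 3. The let-7 pair lies on chromosome 15.
mmu-miR-17-5p: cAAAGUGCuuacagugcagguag
mmu-miR-20a-5p: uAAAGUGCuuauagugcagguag
mmu-miR-93-5p: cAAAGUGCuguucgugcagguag
mmu-miR-106b-5p: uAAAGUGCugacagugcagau
mmu-miR-92a-3p: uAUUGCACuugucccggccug
mmu-miR-25-3p: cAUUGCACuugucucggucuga
mmu-miR-367-3p: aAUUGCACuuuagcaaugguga
mmu-miR-19a-3p: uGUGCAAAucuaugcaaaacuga
mmu-miR-19b-3p: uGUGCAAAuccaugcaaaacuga
mmu-miR-302b-3p: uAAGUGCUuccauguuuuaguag
mmu-miR-302d-3p: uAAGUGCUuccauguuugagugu
mmu-let-7b-5p: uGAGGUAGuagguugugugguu
mmu-let-7c-5p: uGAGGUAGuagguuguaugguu
The first 4 share a seed, as do the next 3, the 2 miR-19 sequences, the 2 miR-302 sequences and the 2 let-7 sequences. Only the first 4 and the next 3 come from different chromosomes, and each other group comes from a single chromosome.

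The clusters were high in every pool. The Mir17 window, chr14:115042671-115044670, had 97.4% of 39 calls in Tet2KO, 96.9% of 65 in 11-month WT and 100% of 25 in 2-month WT. The Mir106b window, chr5:138164819-138166818, had 100% of 66 calls, 98.9% of 92 and 95.4% of 87 in that order. Mcm7, the replication helicase gene around it, had 15.9%, 11.6% and 3.56% at its own start. The Mir302d window, chr3:127544624-127546623, had 100% of 40 calls in Tet2KO, 93.5% of 31 in 11-month WT and 100% of 60 in 2-month WT, and the start of Larp7, which encodes an RNA-binding protein of the 7SK complex, had 3.57%, 1.42% and 2.35%. The Mirlet7b window had 100% of 47, 98.9% of 95 and 100% of 80 calls in Tet2KO, 11-month WT and 2-month WT. Windows within a cluster overlap, so they are not separate measurements.

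The imprinted stretch from Meg3 to Mirg on chromosome 12 held a long run of the set. It holds a chain of noncoding RNA and microRNA genes expressed from the maternal chromosome, and it spans 208463 bp, chr12:109540996-109749458. The protein-coding gene Rtl1 also lies within it and held 4 loci of the set of 4 measured. Of 54 windows there that met the criteria, 48 belonged to the set, in 15 loci, and 41 of these were centred on hairpins. The share over all windows that met the criteria was 11.7%. All 41 hairpin windows measured there were in the set. The 6 others lay within 5448 bp of the Meg3 start. Their levels were 0 to 7.14% in Tet2KO, 1.64 to 25% in 11-month WT and 1.09 to 32.2% in 2-month WT. The first window of the set lay 30993 bp from the start, and from there on the set's levels were 90 to 100% in Tet2KO, 93.9 to 100% in 11-month WT and 90.3 to 100% in 2-month WT. The level rule itself parted the near from the far windows, so nothing is read from the gap. Of the windows listed for all 3 pools, whatever their level, 77 in this stretch lay over 10 kb from the Meg3 start. Their lowest level in any pool was 86.2%, with as few as 10 calls. At Mir127 the levels were 100% of 45 calls in Tet2KO, 96.7% of 150 in 11-month WT and 98.4% of 62 in 2-month WT. Elsewhere in the genome, 198 of 432 hairpin windows (45.8%) were in the set.

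**Figure D4:**
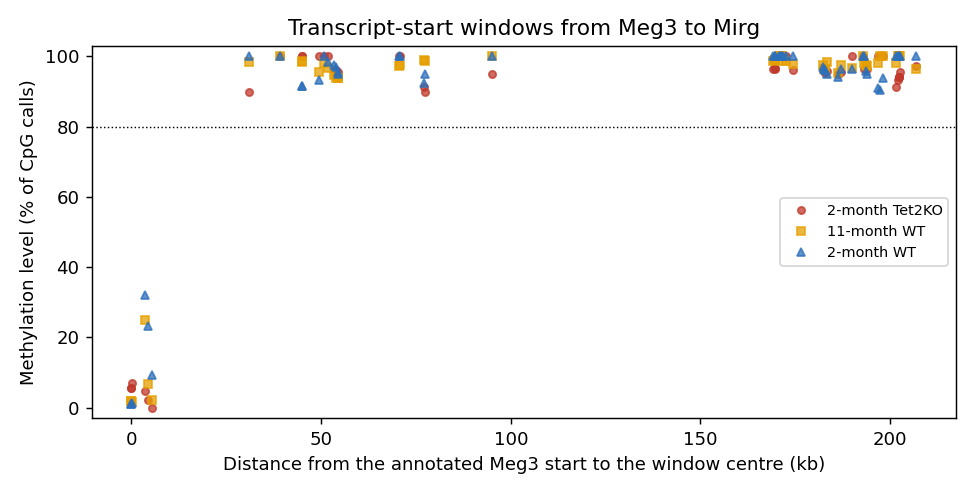
Methylation level (% of CpG calls) of the windows from Meg3 to Mirg that met the criteria, by distance (kb) from the annotated Meg3 start to the window centre, for 2-month Tet2KO, 11-month WT and 2-month WT; the dotted line marks 80%. The 6 windows within 5448 bp of the start lie at 32.2% or less, and the 48 windows beyond 30993 bp lie at 90% or more.

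Gene names could be given to 782 windows of the set, for 559 symbols, which were 7.62% of the 7335 symbols measured under the criteria. Of the lists examined, maternally imprinted genes had the largest share in the set, with 9 of 15 measured: Airn, Fkbp6, Grb10, Kcnq1ot1, Peg3, Slc38a4, Snrpn, Usp29 and Zdbf2. Peg3 and Usp29 share a window. The window at the Kcnq1ot1 start, chr7:143295550-143297549, had 100% of 85 calls in Tet2KO, 97.8% of 230 in 11-month WT and 99.4% of 168 in 2-month WT. The Peg3 window had 95.2% of 84, 95.5% of 134 and 96.2% of 157 calls, and the Snrpn window 97.8% of 46, 96.2% of 183 and 94.3% of 70 calls, in the same order. The spread over pools at these 3 starts was under 4 points.

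The other 6 imprinted genes of the list were Calcr, Commd1, Jade1, Magel2, Mcts2 and Zim1. The list names genes, and whether each measured window covers an oocyte-set mark was not tested. A low level here therefore does not show that such a mark is missing. Mcts2, a retrogene, missed the set through 1 pool, with 75% in Tet2KO, 87.2% in 11-month WT and 92.9% in 2-month WT. Zim1 had 16.7%, 19.6% and 32.2% in that order, and Calcr, Commd1, Jade1 and Magel2 were under 8% in all pools at their deepest window.

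Imprinted genes also showed the contrast between starts of a locus. The Airn start had 100% in Tet2KO, 95.5% in 11-month WT and 100% in 2-month WT, and the start of Igf2r, the receptor gene that Airn overlaps, had 0.962%, 2.28% and 8.62%. The outermost start of Zdbf2, a zinc finger gene, had 100%, 94.8% and 100% in Tet2KO, 11-month WT and 2-month WT, and its start 72757 bp downstream had 1.58%, 2.29% and 1.23%. Grb10, a growth-restraining adaptor gene, had 82.6% of 23 calls in Tet2KO, 98.3% of 58 in 11-month WT and 100% of 26 in 2-month WT at its internal start, and 1.49%, 2.33% and 2.38% at its outermost start. Of 3 genes listed as paternally imprinted, Mirg was in the set, while Igf2 had 0% in Tet2KO, 0% in 11-month WT and 9.38% in 2-month WT.

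Among genes of the DNA methylation machinery, 3 of 7 measured had a start in the set: Dnmt1, Dnmt3b and Tet3. The downstream Dnmt1 window, chr9:20951980-20953979, had 96.3% of 82 calls in Tet2KO, 92.6% of 217 in 11-month WT and 100% of 78 in 2-month WT. The upstream Dnmt1 window, 6909 bp away, had 0% of 47 calls, 3.92% of 51 and 2.38% of 42 in that order. The downstream start was high and the upstream start low in every pool. Dnmt3b had 100%, 96.7% and 98.7% in Tet2KO, 11-month WT and 2-month WT. Tet3, which encodes the Tet dioxygenase of the oocyte and zygote, had 99.2%, 94.7% and 100% at an internal start. A window 816 bp from its outermost start was also in the set, with 98.2%, 98.0% and 93.0% in that order. Windows of Dnmt3l, the oocyte cofactor of de novo methylation, had 1.56%, 3.23% and 0%, and those of Zfp57, a reader of imprints, 2.80%, 0.485% and 0%. Dnmt3a, Dnmt3l, Mbd4 and Zfp57 were not in the set.

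Immune cell genes had 6 of 23 measured genes (26.1%, against 7.62% over all symbols) in the set: Cd22, Cd27, Cd5, Fgr, Lat and Zap70. Zap70, a kinase of T cell receptor signalling, had 98.4% of 64 calls in Tet2KO, 96.9% of 98 in 11-month WT and 97.8% of 45 in 2-month WT. Lat, an adaptor of the same pathway, had 95.6% of 68, 98.4% of 257 and 98.5% of 135 calls. Cd5, a T cell surface receptor, had 100% in all pools, with 21, 111 and 46 calls. All 6 were at 92.2% or more in every pool.

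Sperm genes had 4 of 31 (12.9%, against 7.62% over all symbols) in the set: Actl7a, Spaca4, Spata21 and Tssk2. That count is too small to show a difference from 7.62%. Actl7a, an actin-like protein gene of the sperm head, had 100%, 95.3% and 97.7% in Tet2KO, 11-month WT and 2-month WT. Germline genes that are silenced in somatic cells had 2 of 25 (8%), Dpep3 and Piwil1. Piwil1, a piRNA-binding protein gene, had 97.8%, 100% and 98.8%. Liver genes had 1 of 15 (Apob, the lipoprotein scaffold), muscle genes 1 of 19 (Mb, myoglobin) and neuronal genes 1 of 17 (Th, the rate-limiting enzyme of dopamine synthesis). These last 4 lists had shares of 5.26 to 8%, close to the 7.62% over all symbols. None of the 15 oocyte genes, 10 granulosa and cumulus genes and 11 housekeeping genes measured was in the set, against 7.62% over all symbols, and lists this short show no difference from that share. Promoter methylation does not identify the cells present.

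**Figure D5:**
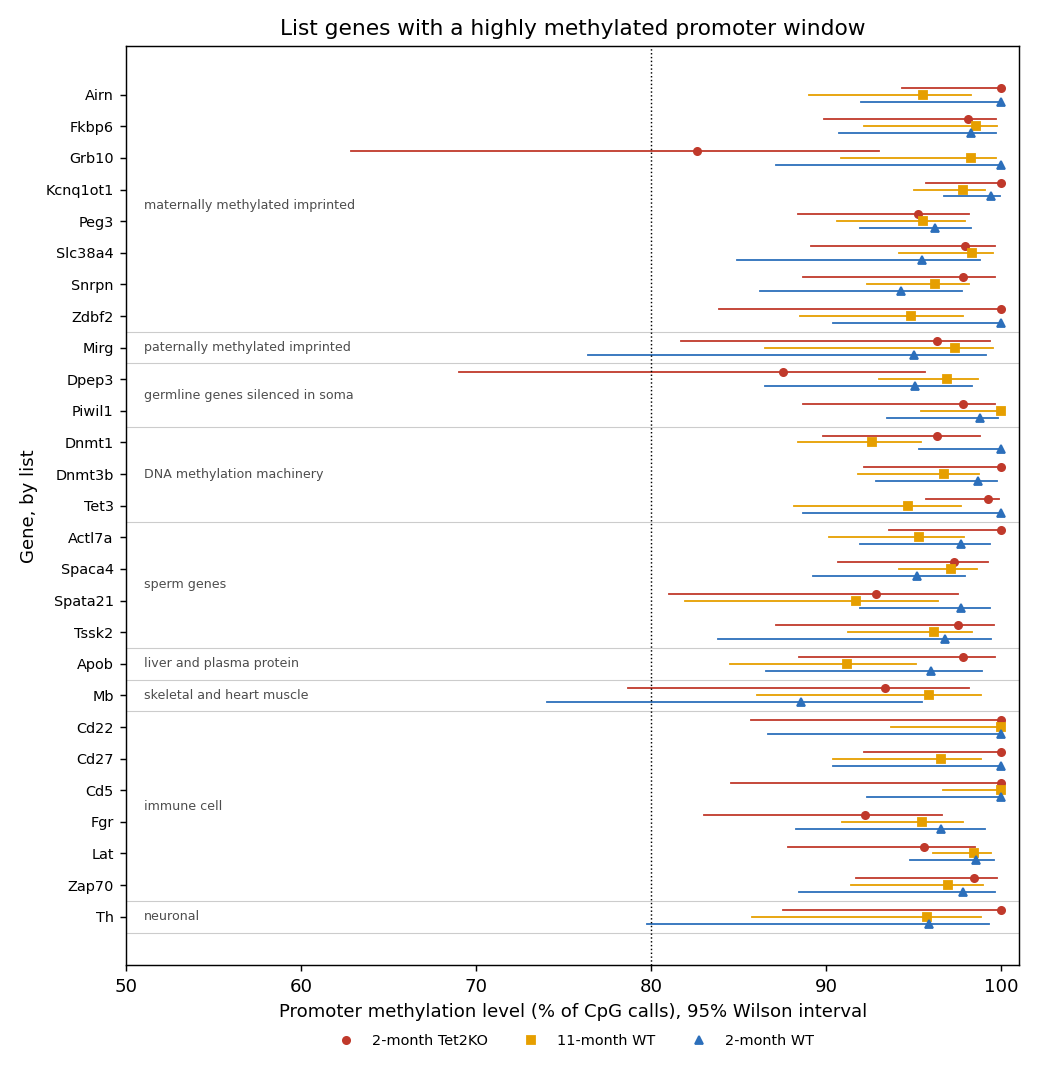
Methylation level (% of CpG calls, axis cut below 50) of the genes of each list that had a window in the set, with 95% Wilson intervals for counting error, for 2-month Tet2KO (red circles), 11-month WT (orange squares) and 2-month WT (blue triangles). Usp29 shares the window of Peg3; Grb10 in Tet2KO, at 82.6% of 23 calls, is the lowest point and has the widest interval.

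Shares in the set were also counted for gene families, with no test. Olfactory receptor genes had 2 of 80 measured symbols, Zfp zinc finger genes 4 of 205, keratin genes 1 of 42, Slc transporter genes 7 of 130 and Hox genes 0 of 12. Against 7.62% over all symbols, these shares were 2.50%, 1.95%, 2.38%, 5.38% and 0%. Cd surface antigen genes had 4 of 34, or 11.8%, with Cd22, Cd27 and Cd5 of the immune list among them. The counts of Hox, keratin, Slc and Cd genes are too small to show a difference from 7.62%. Whether the olfactory receptor and Zfp shares differ from 7.62% was not tested, and no share was adjusted for CpG number.

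Among the deepest windows of the set, Pik3cd had 93.1% of 131 calls in Tet2KO, 97.6% of 164 in 11-month WT and 98.3% of 117 in 2-month WT at the internal start printed above. Close to its outermost start, 0 of 54, 0 of 75 and 0 of 50 calls were methylated in those pools. Lmna, which encodes the nuclear lamins A and C, had 97.3% of 111, 98.8% of 161 and 99% of 96 calls. Ppt2, a lysosomal thioesterase gene, was among both the deepest windows and those with the most CpGs, with 77 positions, and had 100% of 79 calls in Tet2KO, 99.6% of 223 in 11-month WT and 100% of 123 in 2-month WT. Matk, Ffar3, Actr1b and Trip6 had between 95.2 and 100% in every pool. Mcf2, a gene on the X, had 84.8% of 79 calls in Tet2KO, 97.5% of 204 in 11-month WT and 96.6% of 89 in 2-month WT. Its Tet2KO level minus its 2-month WT level was -11.8 points, with a 95% interval of -21.6 to -3.08. Tmcc2, Dok3, Trpc2, Tnfrsf8 and Chml were the deepest named windows at 100% in all pools.

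The pools were compared within the set only as a description, since the rule required all of them to be high. The Tet2KO level minus the 2-month WT level had a median of 0 points, and 72.7% of windows lay within 5 points of each other. Tet2KO was 10 points or more higher in 80 windows (3.57%, against 7.61% of all windows that met the criteria) and 10 points or more lower in 93 (4.15%, against 9.57%). The Newcombe 95% interval lay above 0 in 41 windows (1.83%, against 8.19% of all windows) and below 0 in 75 (3.35%, against 10.0%). The 11-month WT level minus the 2-month WT level had a median of -0.00704 points. It was 10 points or more higher in 89 windows (3.97%, against 7.32% of all windows) and lower in 57 (2.54%, against 8.30%). The interval lay above 0 in 136 (6.07%, against 10.4%) and below 0 in 57 (2.54%, against 13.4%). Both comparisons share the 2-month WT pool, and nothing is read from these counts because the rule bounds them.

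Among named windows with the largest differences, depth varied. Grb2, a signalling adaptor gene, had 82.8% of 29 calls in Tet2KO and 100% of 26 in 2-month WT, and Lrit3, a retinal membrane protein gene, 98.4% of 62 calls in Tet2KO and 81.0% of 58 in 2-month WT. With age, Mlx had 98.9% of 262 calls in 11-month WT and 80.2% of 86 in 2-month WT. Stat4, a transcription factor gene of cytokine signalling, had 82.3% of 62 calls in 11-month WT and 98.4% of 61 in 2-month WT.

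The set was unevenly spread over chromosomes. It took 17.2% of the windows that met the criteria on chromosome 5, 17.1% on chromosome 12 and 4.48% of 737 on the X. On chromosome 12, 48 of the set's 91 windows lay in the Meg3 to Mirg stretch. That stretch held only 54 of the 532 windows of the chromosome that met the criteria. The 33 X windows formed 30 loci. Their call-weighted level was 95.3% in Tet2KO, 92.9% in 11-month WT and 95.7% in 2-month WT, against 96.0%, 96.2% and 95.9% at the 1728 autosomal loci. Between 11-month WT and 2-month WT the interval lay below 0 at 5 of 30 X loci (16.7%) and at 40 autosomal loci (2.31%), and above 0 at no X locus. Over all windows that met the criteria the interval lay below 0 in 13.4%. The 11-month WT level was lower at 16 X loci (53.3%) and higher at 13, and it was lower at 49.2% of autosomal loci. The rule bounds these counts too, and nothing is read from them. Pnma3, a paraneoplastic antigen gene on the X, had 100% of 65 calls in Tet2KO, 83.5% of 133 in 11-month WT and 100% of 50 in 2-month WT. These X values come from 1 pool a group, and whether they recur between libraries was not tested.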

How the data were processed

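CpG methylation was measured by low-input bisulfite sequencing of MII oocytes. Trimmomatic, Bismark (version field 12.5) and mm10 are named in the submitters' processing notes with no roles; further steps were not given in the sources used. Per 2000-bp window and group, the deposited counts give methylated CpG calls, the deposited coverage gives all CpG calls, and a further column gives covered CpG positions. The smallest listed window has 10 calls. The deposited fraction, a mean over positions, served as an alternative. In the 2-month WT table the final line breaks off on the X, and later windows were not analysed here.

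Levels are 100 times methylated over all calls, with Wilson and Newcombe 95% intervals (Python 3.11.15, pandas 2.3.3, numpy 2.4.6). Calls of 1 read or PCR copies are not independent. Total calls in the listed nuclear windows were 5464356 in Tet2KO, 16993810 in 11-month WT and 9392359 in 2-month WT, with calls in overlapping windows counted more than once. RefSeq starts within 200 bp of a centre named windows. Each group has 1 pooled value here, so no test was run; the counting of members and intervals was tested on simulated data. The members, gene lists and tests were chosen with earlier results of these data known. Named genes were the deepest 10 windows, the deepest 5 at 100%, the 5 with most positions, those nearest the 80% limit on either side, the 3 highest and 3 lowest differences per comparison, list members, and genes with 3 or more loci; predicted genes, microRNAs and olfactory receptors were left out of that rule. Genes shown for their starts, the microRNA clusters, the hosts of internal windows, the windows over the position limit and the X values were chosen after values were seen.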

Additional observations from a re-analysis of the deposited data

How the results depend on the processing

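No paired analysis was possible because each group has 1 pooled value, and for the same reason no replicate could be left out. With at least 50 calls in each pool, 351 windows were left, of which 67.5% were inside genes and 41.0% had a symbol, with a median of 44 covered positions and 4 maternally imprinted genes. With at least 10 calls there were 3873 windows, of which 31.8% had a symbol. With fewer than 50 positions, 73.0% were inside genes, 32.9% had a symbol and 5 imprinted genes were left. Over 1 window per locus, 74.7% were inside genes and 30.0% had a symbol. At 500 bp from a gene end 74.9% were inside, at 2000 bp 63.5%, and naming within 500 bp gave a symbol to 37.9%. The size of the set, its CpG number and its imprinted genes thus depend on the depth asked for. The share of all windows inside genes was not recomputed under these alternatives. The other 69 recomputed values stayed within the limits set for them, which for a count is 1.5 times the reported one. Within that limit, the set held 1759 windows at a level limit of 90%, and imprinted genes numbered up to 12. The median level lay between 96.6 and 97.3% in Tet2KO, 96.9 and 97.4% in 11-month WT and 96.8 and 97.7% in 2-month WT. For median levels and differences, the limit was the counting interval of a single window at the set's median depth. That interval is wide and the rule bounds the levels, so these medians could hardly leave it. Part of the alternatives, for all results but the number of windows, were chosen after seeing the data. Depth limits single windows: 20 calls are the least behind any level.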
